A study of Mus musculus with 145 samples.

Results

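Stromal cells sorted from mouse subcutaneous lymph nodes 6 days after CFA were compared with the same sorted populations from nodes whose labels name no treatment. The 11 arrays were chosen by their sample titles, out of 145 arrays in 65 groups of the series. They are DN cells with CFA (2 arrays) and DN cells (2 arrays), FRC with CFA (2 arrays) and FRC (2 arrays), and LEC with CFA (1 array) and LEC (2 arrays). Every group came from male C57BL/6J mice aged 6 weeks and carried no transgene or deletion by its labels. CFA is the usual abbreviation of complete Freund's adjuvant, a mineral oil emulsion with killed mycobacteria, but the labels do not spell it out, and give neither its dose nor its site. Nothing in the labels says how control mice were handled, or whether the 2 arrays of a group came from separate animals or pools. P-values therefore measure the spread between arrays, which may be technical.

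Sorting used surface proteins. FRC, fibroblastic reticular cells, were taken as gp38+ CD140a+ and negative for CD31, CD45 and TER119. LEC, lymphatic endothelial cells, were gp38+ CD31+ and negative for CD45 and TER119. DN cells were negative for both gp38 and CD31, as well as for CD45 and TER119, and low for CD44. FRC build the collagen conduits of the T cell zone, and secrete the chemokines and survival factors that place and sustain lymphocytes. DN cells are known to include pericytes, the contractile cells around vessels, and LEC line the sinuses through which lymph passes. After immunization a draining node swells within days, and its stroma is known to stretch, divide and remodel its matrix.

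The transcripts behind these gates were checked first, with RMA values given as linear intensities. Of 5 tested gate genes 1 was higher and 2 lower in both DN arrays with CFA (22.7% and 14% of all probe sets), and none was called by the rule below. Over the alternative fits listed at the end, the DN log2 difference was −1.04 to −0.31 for Pdpn, which encodes gp38. For Cd44 it was 0.41 to 0.74. Pdgfra, which encodes CD140a, lay at 994 and 1329 in DN cells with CFA and 1393 and 1571 in DN cells, and at 4741 and 4832 in FRC with CFA and 4226 and 4089.7 in FRC. In LEC it was 260.4 with CFA and 86.2 and 97.6 without. DN cells thus carried an intermediate level of a marker that the FRC gate required. The smooth muscle myosin Myh11 was highest in DN cells, at 4862 and 4341 with CFA and 4631 and 3796 without, against 475 and 335 in FRC with CFA and 577 and 432 in FRC. Ptprc, which encodes CD45, was 161 and 177 in DN cells with CFA and 163 and 134 in DN cells, and 80.2 and 63.5 in FRC with CFA and 84.6 and 70.7 in FRC, so that it was close to the array medians in DN cells and under them in FRC.

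Endothelial transcripts varied with the array number in DN cells and FRC. Pecam1, which encodes CD31, was 569.8 and 225 in DN cells with CFA and 695 and 290.3 in DN cells, and 298 and 91.0 in FRC with CFA and 459 and 222 in FRC. The first array exceeded the second in all 4 of these groups. In sorted bulk samples, fewer cells of a type and less RNA per cell cannot be told apart. LEC had 4491 with CFA and 4184 and 4054 without. Of 14 tested blood endothelial markers, between 11 and 13 were higher in the first array of each of these 4 groups. Array medians lay between 129.3 and 136.3 and maxima between 18172 and 21479. Over the probe sets tested below, the correlation of an array with its partner ran from 0.97 for the 2 arrays of DN cells to 0.988 for LEC.

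**Figure D1:**
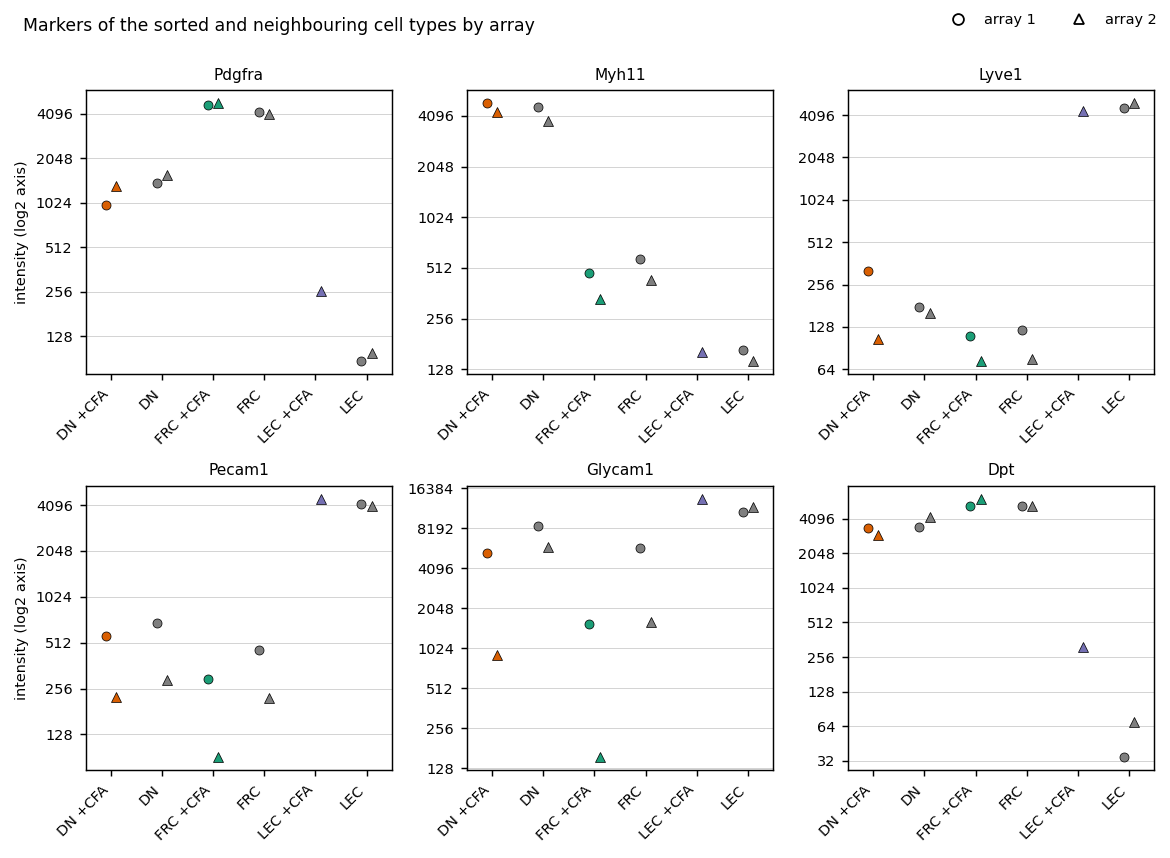
Intensity on a log2 axis of 6 marker genes in each of the 11 arrays, with circles for the first and triangles for the second array of a group. Pdgfra is high in FRC, Dpt in both FRC and DN cells, Myh11 in DN cells and Lyve1 in LEC. Pecam1 and Glycam1 are higher in the first array than in the second in every DN and FRC group.

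Each comparison was fitted with limma over the 14325 probe sets that passed a filter on dim values, and a probe set was called at a Benjamini-Hochberg adjusted p under 0.05. Few calls were made. In DN cells with CFA 12 probe sets were called (0.0838% of those tested), 10 of them higher (0.0698%) and 2 lower (0.014%). In FRC with CFA 1 was called (0.00698%), and it was higher. At an unadjusted p under 0.05, 10.1% of probe sets passed in DN cells (6.44% higher, 3.62% lower) and 13.6% in FRC (4.47% higher, 9.09% lower). With 2 arrays a group the design limits what can be called. In simulated data a log2 change of 1 was recovered for 79.1% of probe sets in DN cells and 74.6% in FRC. A change of 0.5 was recovered for 7.46% and 2.99%. Changes of 0.5, 1 and 2 were planted in 67, 67 and 66 probe sets. The adjusted cutoff loosens as more probe sets pass, so the recovered shares depend on these numbers. Only 12 and 1 were called here. The simulated noise was independent between arrays, while here deviations of equal array numbers correlated (r = 0.338 in DN cells, 0.233 in FRC). These shares therefore need not hold here, where differences above 1, such as 1.32 for Mki67 in DN cells, were not called.

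The DN count rests on single arrays. It was 301 without the first array of DN cells, against 9 without the second. All arrays of the series fitted together, sharing 1 estimate of the spread, gave 121 calls in DN cells and 49 in FRC. For genes outside the calls, values are therefore given by array, and none is said to have changed.

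**Figure D2:**
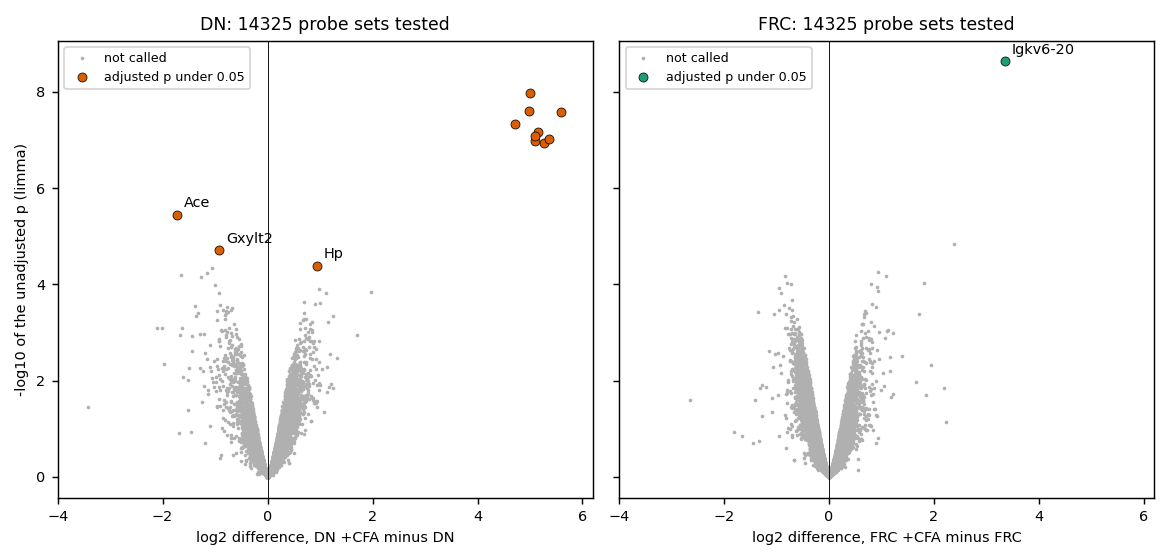
Log2 difference with CFA against the −log10 of the unadjusted limma p for the tested probe sets in DN cells (left) and FRC (right). Filled points passed an adjusted p under 0.05, 12 in DN cells and 1 in FRC, and the 9 called points at the upper right of the DN panel are probe sets with no gene symbol.

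Among DN cells, 9 of the 10 higher calls were probe sets that the array annotation used here does not list, so they carry no gene name. Probe set 10513420 read 728 and 653 in DN cells with CFA, against 13.2 and 15.4 in DN cells. It was 38.1 and 94.6 in FRC with CFA and 40.7 and 79.9 in FRC, and 16.1 in LEC with CFA and 17.4 and 15.9 in LEC. Both CFA arrays of DN cells thus stood far above every other array of the node. The 9 probe sets had log2 differences in DN cells from 4.71 to 5.60, with limma adjusted p from 0.000124 to 0.000188, and from 0.08 to 0.35 in FRC, where the lowest adjusted p was 0.67. Since the DN controls lay between 10.3 and 17.02, near the bottom of the scale, the size of these differences depends on that floor. They passed the filter only through DN cells with CFA, and were called with no filter too.

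These 9 probe sets moved as 1 signal across the series, where every pair correlated with r between 0.990 and 0.9998 over 145 arrays. Their highest levels were elsewhere: probe set 10513420 averaged 3684 and 3326 in both groups of liver macrophages and 1446 in the thymic group Ep.8wk.MEChi.Th, against 689 in DN cells with CFA, which ranked 6 of 65 groups. The named probe sets closest in pattern over the 145 arrays were Kng1 (r = 0.866), the kininogen gene, Ces1c (r = 0.842), a carboxylesterase, and Ttr (r = 0.824), which encodes transthyretin. These are genes of hepatocytes, and the likeness rests on few groups with high values. In the node they did not accompany the signal. Alb, the albumin gene, was 27.0 and 30.8 in DN cells with CFA against 30.4 and 32.7 in DN cells, and Ttr was 38.0 and 40.8 against 41.1 and 45.4.

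A further 3 genes, with names, were called in DN cells. Ace, the angiotensin-converting enzyme of endothelium and other surfaces, fell to 439.8 and 479.96 in DN cells with CFA, against 1403 and 1649 in DN cells (log2 difference −1.73 ± 0.20 SE, limma adjusted p = 0.00513). The other populations did not show this. Ace was 484 and 669.6 in FRC with CFA and 363 and 471 in FRC, and 1035 in the LEC array with CFA against 402 and 497 in LEC. The call of Ace was lost without the first array of DN cells with CFA (adjusted p = 0.0908) and without the second array of DN cells (adjusted p = 0.0801).

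Gxylt2, a glucoside xylosyltransferase that extends O-glucose on epidermal growth factor repeats of Notch, fell to 150.5 and 157 in DN cells with CFA, against 278 and 307 in DN cells (log2 difference −0.93 ± 0.13, limma adjusted p = 0.0252). FRC had far more of it, 1739.8 and 1829.8 with CFA and 1352 and 1525 without. Hp, which encodes the acute phase protein haptoglobin, rose to 153 and 140.3 in DN cells with CFA, against 70.0 and 83.4 in DN cells (log2 difference 0.94 ± 0.14, limma adjusted p = 0.0488). In FRC it was also higher in both arrays with CFA, at 78.6 and 85.6 against 58.1 and 62.2, without a call. Hp passed the filter only through DN cells with CFA, and with no filter its call was lost (adjusted p = 0.0554), as in 9 of 12 alternatives in all. Gxylt2 lost its call when any array other than the first of DN cells was left out of the DN groups (adjusted p from 0.138 to 0.266).

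**Figure D3:**
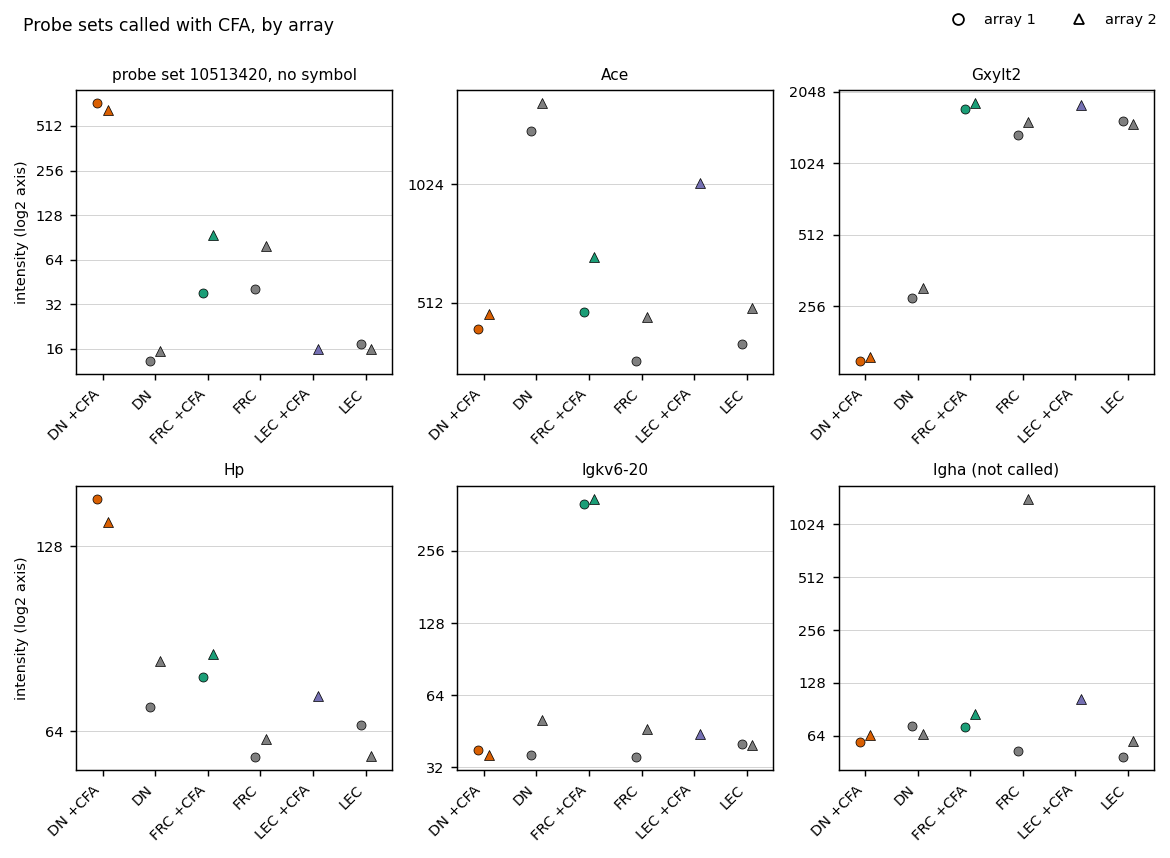
Intensity on a log2 axis, by array, of an unnamed probe set, Ace, Gxylt2 and Hp, called in DN cells with CFA, of Igkv6-20, called in FRC with CFA, and of Igha, not called. The unnamed probe set stands out only in DN cells with CFA, Igkv6-20 only in FRC with CFA, and Igha only in the second FRC array.

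Genes of cell division were the list with the highest median in DN cells. Of 28 genes of the list, 23 were tested and none was called in either population. In DN cells 19 of the 23 were higher in both CFA arrays than in both control arrays and none was lower, where 22.7% of all probe sets were higher and 14% lower in this way. Their median log2 difference was 0.67, against 0.06 over all probe sets, and 16 passed an unadjusted p under 0.05, where 6.44% of all did so in this direction. In FRC 10 were higher and 1 was lower in both arrays (20% and 30.2% of all probe sets), with a median of 0.22 against −0.04 over all. In the LEC array with CFA 5 of the 23 lay above and 13 below both LEC arrays (44.1% and 35.7% of all probe sets), with a median of −0.06.

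Mki67, which encodes the nuclear protein Ki-67 of dividing cells, was 611 and 309 in DN cells with CFA and 244 and 124 in DN cells (log2 difference 1.32 ± 0.35, limma adjusted p = 0.296). In FRC it was 468 and 313 with CFA and 189 and 183 without (log2 difference 1.04 ± 0.35, limma adjusted p = 0.301). The CFA arrays lay above the controls in both populations, but the second DN array with CFA was nearer to the first DN control than to its partner. Ccna2, cyclin A, was 609 and 335 in DN cells with CFA and 238 and 167 in DN cells, and 543 and 351 in FRC with CFA and 205 and 288 in FRC. Ccnb2, cyclin B2 of mitotic entry, was 720.1 and 504 in DN cells with CFA and 355 and 311 in DN cells. These genes did not overlap between the CFA and control groups in DN cells or in FRC.

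Top2a, the topoisomerase that untangles replicated chromosomes, was 314 and 143 in DN cells with CFA and 134 and 70.3 in DN cells, and Kif11, a motor of the mitotic spindle, was 321 and 135 with CFA and 135 and 92.7 without. For both genes the second CFA array was close to the first control. The replication genes differed less. Mcm5, a subunit of the replicative helicase, was 288 and 220.2 in DN cells with CFA and 198 and 158 in DN cells, and 380.5 and 295 in FRC with CFA against 241 and 344 in FRC, where the groups overlapped. Pcna, the sliding clamp of the polymerase, was 1271 and 1113 in DN cells with CFA and 1099.6 and 1144 in DN cells. The array number moved with these genes too: 22 of 23 were higher in the first than in the second array of DN cells with CFA, 20 in DN cells, 22 in FRC with CFA and 4 in FRC. With the array number as a block in the fit, Mki67, Ccna2 and Top2a were not called either. The labels do not say what the number stands for, and its part in the differences was not tested beyond that fit. With all arrays of the series in the fit 3 of the 23 were called in DN cells, Mki67, Ccna2 and Top2a. In that fit 121 of all 14325 probe sets were called in DN cells, 50 of them higher. Without the first array of DN cells the log2 difference of Mki67 was 1.81.

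**Figure D4:**
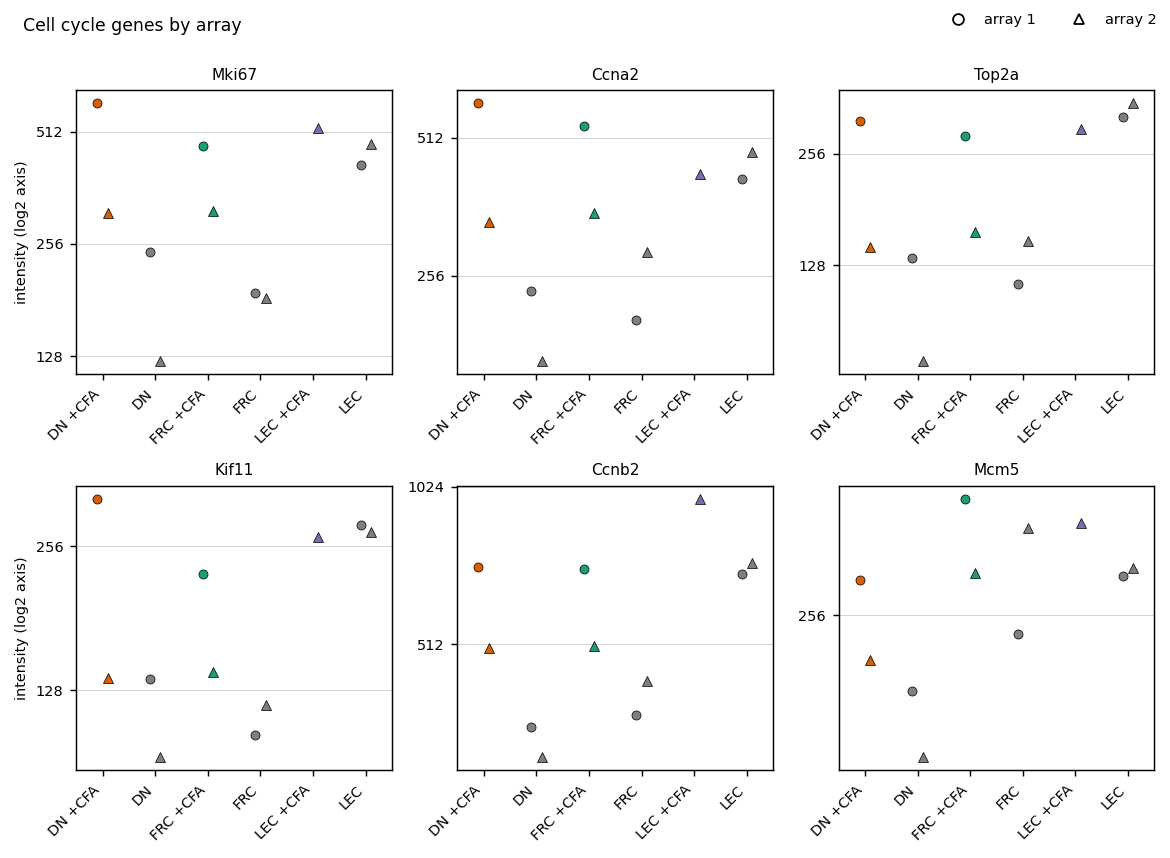
Intensity on a log2 axis of 6 cell cycle genes in each of the 11 arrays, with circles for the first and triangles for the second array of a group. In DN cells the arrays with CFA lie above the controls for each of the 6 genes, and the first array lies above the second both with CFA and without it.

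Promoters of these genes are known to share the cell cycle homology region, TTTGAA, and CCAAT boxes, so they were searched for both on either strand, from 250 bases before to 50 after the transcription start in RefSeq on GRCm38.p6. Of the 23 tested genes 19 matched the promoter table, with 21 promoters. TTTGAA was present in 52.4% of these, against 17.9% of 32851 mouse promoters, and CCAAT in 90.5% against 37.4%. Both occurred together in 52.4%, against 6.95%. The genes with both were Mki67, Top2a, Kif11, Prc1, Ccnb2, Ube2c, Plk1, Cdk1, Aurka and Mcm2. Rrm1, Rrm2, Mcm3, Mcm5, Mcm6, Mcm7 and Pcna had CCAAT and no TTTGAA in this window, and Nusap1 and Tyms had neither. Prc1 and Mcm7 entered with 2 promoters each, and those of Prc1 overlap. The genes were picked as genes of cell division, whose promoters are known to share these letters, so the shares do not bear on CFA. A match of letters is a description and no measured binding. The promoters of the 3 genes with the highest DN differences among those in the table are given here, 5′ to 3′ on the gene's strand, with TTTGAA and CCAAT, or their reverse complements TTCAAA and ATTGG, in capitals. They lie at chr7:135716330-135716629 on the minus strand (Mki67), chr11:99024140-99024439 on the minus strand (Top2a) and chr19:37376132-37376431 on the plus strand (Kif11).
Mki67: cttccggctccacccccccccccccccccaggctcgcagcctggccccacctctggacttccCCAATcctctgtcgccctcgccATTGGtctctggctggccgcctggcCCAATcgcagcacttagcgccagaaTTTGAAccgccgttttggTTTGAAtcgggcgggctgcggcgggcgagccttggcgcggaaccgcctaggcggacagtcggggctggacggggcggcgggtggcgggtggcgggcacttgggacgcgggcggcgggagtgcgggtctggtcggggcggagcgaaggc
Top2a: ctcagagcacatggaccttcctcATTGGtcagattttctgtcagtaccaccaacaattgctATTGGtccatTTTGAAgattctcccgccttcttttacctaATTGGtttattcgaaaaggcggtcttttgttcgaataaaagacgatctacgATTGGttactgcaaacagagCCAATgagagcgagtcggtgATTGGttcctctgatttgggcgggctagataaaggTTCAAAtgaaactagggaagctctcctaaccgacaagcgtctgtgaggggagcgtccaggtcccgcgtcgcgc
Kif11: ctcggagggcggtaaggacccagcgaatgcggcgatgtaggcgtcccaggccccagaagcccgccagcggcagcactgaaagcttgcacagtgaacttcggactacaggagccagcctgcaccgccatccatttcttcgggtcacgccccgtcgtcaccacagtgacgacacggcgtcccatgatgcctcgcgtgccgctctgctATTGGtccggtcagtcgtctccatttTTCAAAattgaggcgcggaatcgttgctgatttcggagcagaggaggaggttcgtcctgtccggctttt

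Several matrix genes had higher values in DN cells with CFA, and collagens also moved with the array number. All 17 collagen genes of the list were tested, and in DN cells 7 were higher and none lower in both arrays (22.7% and 14% of all probe sets), with a median log2 difference of 0.45. In FRC 3 were higher and 5 lower, close to the 20% and 30.2% of all probe sets, with a median of −0.04. None was called. The first array was above the second for 15 of the 17 in DN cells with CFA, 14 in DN cells, 13 in FRC with CFA and 12 in FRC. Their summed level was 31513 to 42809 in DN cells with CFA and 22150.5 to 32001 in DN cells, which overlap. Col6a3, a chain of microfibrillar collagen VI, was 4832 and 4079 in DN cells with CFA and 3208 and 2381 in DN cells, and 3155 and 2998 in FRC with CFA and 2279.9 and 2994 in FRC. Col8a1, a short-chain collagen of vessel walls, was 219.6 and 224 in DN cells with CFA and 160.3 and 164 in DN cells. The second FRC arrays with and without CFA were almost equal for Col6a3, while the DN groups were apart. With all arrays of the series in the fit 2 of the 17 were called in DN cells, Col5a2 and Col6a3, where 121 of all 14325 probe sets were called, 50 of them higher. Neither gene was called with the array number as a block in the fit. The part of the array number was not tested beyond that fit.

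Tnc, which encodes tenascin-C, a matrix glycoprotein of remodelling tissue, was 3325 and 2987 in DN cells with CFA and 1701 and 1493 in DN cells (log2 difference 0.98 ± 0.17, limma adjusted p = 0.101). In FRC it was 1863 and 1364 with CFA and 1204 and 1379.97 without, where the groups overlapped. Timp1, an inhibitor of matrix metalloproteinases, was 1291 and 769 in DN cells with CFA and 441 and 399.5 in DN cells, and 1540.2 and 2066 in FRC with CFA and 578 and 1817 in FRC. The second FRC control lay between the CFA arrays in Timp1. Vcan, the large proteoglycan versican, was higher with CFA in both populations, at 365 and 363 in DN cells with CFA and 224 and 218 in DN cells, and 517 and 663 in FRC with CFA and 176 and 361 in FRC. Other matrix genes went the other way in DN cells. Fbln1, fibulin-1 of elastic fibres, was 432 and 486 in DN cells with CFA and 681 and 816 in DN cells, and Plau, the urokinase that activates plasminogen, was 208 and 173 with CFA and 349 and 376 without. None of these matrix genes was called in the main fit. Over the alternatives the DN log2 difference ran from −0.83 to −0.57 for Fbln1, −1.06 to −0.80 for Plau and 0.89 to 1.08 for Tnc.

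Among signals of stroma to immune cells, Il33, an alarmin cytokine that stromal cells hold in the nucleus, was 466 and 495 in DN cells with CFA and 175 and 269.8 in DN cells (log2 difference 1.14 ± 0.24, limma adjusted p = 0.193). FRC held far more, 3273 and 5169.7 with CFA and 3038 and 3164 without, and there too both CFA arrays were above the controls. Tnfsf11, which encodes RANKL, was 379.96 and 455 in DN cells with CFA and 286 and 276 in DN cells, while the FRC groups overlapped at 807 and 708 with CFA and 534 and 836 without. Cxcl5, a neutrophil attractant, was low, at 92.0 and 93.3 in DN cells with CFA and 50.4 and 53.2 in DN cells. The homeostatic chemokines had no call. Ccl19, which draws T cells and dendritic cells through CCR7, was 8946 and 7938 in FRC with CFA and 9288 and 9322 in FRC, and 4849 and 4967 in DN cells with CFA and 3366 and 3107 in DN cells. Cxcl13, which draws B cells, was 6507 and 7513 in FRC with CFA and 5314 and 6777 in FRC. Of 5 tested homeostatic chemokine genes and their scavenging receptors none was called in DN cells or FRC.

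Genes induced by type I interferon had a median log2 difference of 0.20 in DN cells and −0.04 in FRC over 19 tested genes, with 8 higher and 1 lower in both DN arrays (22.7% and 14% of all probe sets), and 3 higher and 3 lower in FRC (20% and 30.2%). Oas2, an antiviral oligoadenylate synthetase, was higher in both populations, at 461 and 517 in DN cells with CFA and 277 and 265 in DN cells, and 227 and 238 in FRC with CFA and 108 and 166 in FRC. Usp18, which restrains interferon signalling, differed in sign. It was 1071 and 1205 in DN cells with CFA and 892 and 874 in DN cells, and 1679 and 1746 in FRC with CFA and 2098 and 2188 in FRC. Ifi205 went the other way in each population. Its levels were 854 and 1737 in DN cells with CFA and 2884 and 3821 in DN cells, and 1819 and 2221 in FRC with CFA and 872 and 1403 in FRC. Irf1, a transcription factor of interferon responses, was lower in both, at 1301 and 1450.5 in DN cells with CFA and 2084 and 2065 in DN cells, and 946 and 925 in FRC with CFA and 1363 and 1315 in FRC. None of these was called.

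The pathway that loads peptides on MHC class I had 10 tested genes. In DN cells 7 were higher and none lower in both arrays (22.7% and 14% of all probe sets), with a median log2 difference of 0.19. In FRC none was higher and 7 were lower (20% and 30.2% of all), with a median of −0.29, and none was called. Psmb10, a subunit of the immunoproteasome, was 690.3 and 778 in DN cells with CFA and 649.7 and 658 in DN cells, and 539.95 and 771 in FRC with CFA and 1011 and 1093 in FRC. Psme2, which activates that proteasome, was 1149.5 and 1062 in DN cells with CFA and 805 and 707 in DN cells, and 908 and 1088 in FRC with CFA and 1198 and 1125 in FRC. For both genes the CFA arrays lay above the controls in DN cells and below them in FRC, without a call for the difference between the populations. Cd74, the invariant chain of MHC class II, was lower with CFA in both, at 423 and 384 in DN cells with CFA and 649 and 780.5 in DN cells, and 1138 and 1219 in FRC with CFA and 1459 and 1860.1 in FRC.

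Among the lower values in DN cells with CFA without a call was that of C7. C7, a late complement component, was 735 and 634 in DN cells with CFA and 1982 and 2317 in DN cells (log2 difference −1.65 ± 0.26, limma adjusted p = 0.0613), and 262 and 502 in FRC with CFA and 425 and 547 in FRC. Its 2 DN groups were well apart, and it was called under 6 alternatives. Sema3c, a secreted semaphorin, was 108 and 145 in DN cells with CFA and 240.3 and 416 in DN cells. Adgrd1, an adhesion receptor, was 319 and 423 in DN cells with CFA and 893 and 1115 in DN cells, and Enpp3, an ectoenzyme that splits extracellular nucleotides, was 55.5 and 94.5 with CFA and 209 and 239 without. The groups did not overlap for any of these genes. Penk, the enkephalin precursor, was 181 and 546 in DN cells with CFA and 672 and 1204 in DN cells. The spread within a group was wide for Penk and narrow for C7. Ppbp, a platelet chemokine, was 39.7 and 32.6 in DN cells with CFA and 77.3 and 276 in DN cells, a difference that rests mostly on the second control array.

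Genes of the TGF-beta and BMP pathway had negative medians in both populations. Of 21 tested genes 4 were higher and 7 lower in both DN arrays (22.7% and 14% of all probe sets), with a median log2 difference of −0.14. In FRC 2 were higher and 12 lower (20% and 30.2% of all), with a median of −0.15. Id1, a direct target of BMP receptors, was 438 and 458 in DN cells with CFA and 752 and 799 in DN cells, and 156 and 142 in FRC with CFA and 203 and 249 in FRC. All 4 CFA arrays of Id1 lay below their controls. Smad6 and Smad7, inhibitors of these receptors, were lower in FRC with CFA, Smad6 at 169.7 and 156 against 244 and 228 in FRC, and Smad7 at 288 and 267 against 376 and 420.3. Fst, follistatin, which binds activins, was 986 and 1096 in DN cells with CFA and 1878 and 1409 in DN cells, and 498 and 539 in FRC with CFA and 497 and 465 in FRC. None was called. With all arrays of the series in the fit, 1 of the 21 was called in DN cells, Id1, where 121 of all 14325 probe sets were called, 71 of them lower.

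The single call in FRC was an immunoglobulin light chain segment. Igkv6-20, a kappa variable gene of B cells, rose to 401 and 422 in FRC with CFA, against 35.3 and 46.4 in FRC (log2 difference 3.35 ± 0.18, limma adjusted p = 3.37e-05). It was 37.7 and 36.2 in DN cells with CFA and 36.1 and 50.6 in DN cells, and 44.3 in LEC with CFA and 40.1 and 39.8 in LEC. Both FRC arrays with CFA were thus alike and alone among the 11. In the series only the B1a group, with 1 array at 942, had a higher mean, and the group of FRC with CFA came next at 411. Igkv6-20 passed the filter on dim values only through FRC with CFA, and its control level is near that of most groups of the series (median over 65 groups 43.0), so the size of the difference depends on that floor. The call held under every alternative tried, the fit with no filter included, with adjusted p from 9.82e-12 to 0.00189.

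Several other immunoglobulin transcripts were high in a single FRC array. Igha, the alpha heavy chain, was 71.7 and 84.8 in FRC with CFA and 52.1 and 1428 in FRC, so that 1 control array stood alone. Ighg3, the gamma 3 heavy chain, was 320.3 and 26.5 in FRC with CFA and 26.2 and 27.2 in FRC, and an Ighm probe set (10403069) was 18.1 and 502 with CFA and 22.6 and 17.6 without. Igkv4-91, another kappa segment, was 23.2 and 29.3 in FRC with CFA and 23.5 and 527 in FRC. Igkv10-96 was high in 1 array of each group, at 237 and 32.7 in FRC with CFA and 25.2 and 390.1 in FRC, and Igkv9-120 was above both controls by little, at 55.4 and 66.5 with CFA and 47.1 and 49.1 without. Of 14 immunoglobulin and J chain probe sets, 2 reached 300 in each FRC array with CFA, against 0 and 4 in the FRC controls, and none did so in a DN or LEC array. Jchain, which joins polymeric antibodies, was 130.03 and 161 in FRC with CFA and 38.8 and 254 in FRC. It was high in both arrays with CFA and in 1 control. A pair of probe sets without a symbol was higher in both FRC arrays with CFA and not called. Probe set 10403060 was 273 and 649 in FRC with CFA and 71.0 and 92.8 in FRC (log2 difference 2.38 ± 0.31, limma adjusted p = 0.103), and it was called in 4 of 13 alternatives. Probe set 10403028 was 226 and 119 in FRC with CFA and 37.3 and 58.1 in FRC (log2 difference 1.82 ± 0.30, limma adjusted p = 0.154), and it was called in 2 of 12. The tested plasma cell markers as a list showed 0 of 7 higher and 1 lower in both FRC arrays (20% and 30.2% of all probe sets), with a summed level over all 12 genes of 4714 to 5214 in FRC with CFA and 4260 to 5585 in FRC, and the 13 measured B cell markers summed to 1062 to 1104 in FRC with CFA and 1048 to 1094 in FRC. None of these markers was at 0, which RMA values do not reach. The part of antibody-forming cells in the Igkv6-20 call was not tested.

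Heat shock genes had the highest median of the lists in FRC. Of 10 tested, 7 were higher and none lower in both arrays (20% and 30.2% of all probe sets), with a median log2 difference of 0.47. In DN cells no gene was outside the controls in either direction, where 22.7% of all probe sets were higher and 14% lower (median 0.05). None was called. Hspd1, the mitochondrial chaperonin Hsp60, was 1812 and 1531 in FRC with CFA and 722 and 766 in FRC (log2 difference 1.16 ± 0.31, limma adjusted p = 0.254), and 1321 and 897 in DN cells with CFA and 573 and 1144 in DN cells. Hsph1, a large cytosolic chaperone, was 1777 and 1284 in FRC with CFA and 759 and 932 in FRC. The second control array was above the first for all 10 genes in DN cells and likewise in FRC. In DN cells the groups overlapped for every one of the 10.

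Further genes with high differences in FRC without a call were Ccdc141, a coiled-coil protein, at 459 and 700.4 in FRC with CFA and 208 and 327 in FRC, and Nckap5, at 226 and 232 with CFA and 92.6 and 128 without. Nckap5 was also higher in DN cells with CFA, at 196 and 189 against 122 and 98.7 in DN cells. A second probe set of Nckap5 overlapped between the FRC groups, at 467 and 326 with CFA and 336.5 and 315.5 without. Fbxl7, an F-box protein of a ubiquitin ligase, was 389 and 268 in DN cells with CFA and 108 and 62.4 in DN cells, and 123 and 87.9 in FRC with CFA and 42.8 and 50.9 in FRC, by a probe set whose neighbour for the same gene did not show it (log2 differences −0.19 in DN cells and −0.37 in FRC). Mt2, a metallothionein, was 7094 and 6175 in FRC with CFA and 1678 and 5091 in FRC, with the first control far below the other 3 arrays.

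Lower values in FRC with CFA were led by Glycam1, the sulphated ligand for L-selectin on high endothelial venules, at 1549 and 155 in FRC with CFA and 5809.9 and 1628 in FRC (log2 difference −2.65 ± 1.01, limma adjusted p = 0.324). In DN cells it was 5306 and 919 with CFA and 8516 and 5911 without. Both Glycam1 and Pecam1 were higher in the first than in the second array of each of these 4 groups. Of 6 tested markers of high endothelial venules 2 were lower and none higher in both FRC arrays, near the 30.2% of all probe sets that were lower, where 20% were higher. In DN cells 2 were lower and none higher (14% and 22.7% of all). The 6 measured markers summed to 534 to 2086 in FRC with CFA and 2023 to 6545 in FRC, and to 1319 to 5904 in DN cells with CFA and 6394 to 9122 in DN cells. Glycam1 made up most of the sums in DN cells. The geometric means of the 6 overlapped, at 217 and 118 in DN cells with CFA and 234 and 182 in DN cells. In FRC they overlapped too, at 160 and 82.0 with CFA and 263 and 130 without. The part of endothelial cells in the Glycam1 difference was not tested.

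Hey2, a Notch target of arterial and mural cells, was 137 and 82.4 in FRC with CFA and 344 and 216 in FRC, and 911 and 763 in DN cells with CFA and 1302 and 1518 in DN cells, lower with CFA in every case. Inmt, a methyltransferase of tryptamines, was 2081 and 3737 in FRC with CFA and 6154 and 5705 in FRC, and Cyp2f2, a cytochrome P450, was 436 and 1263 with CFA and 1646 and 1531 without. Clec3b, tetranectin, was 265 and 351 in FRC with CFA and 620.1 and 570.2 in FRC, and 134 and 136 in DN cells with CFA and 238 and 245 in DN cells. The 4 CFA arrays of Clec3b were the lowest of their population. Nqo1, a quinone reductase, was 93.8 and 128 in FRC with CFA and 206 and 219 in FRC. Of 15 tested genes of the mitochondrial respiratory chain, none was higher and 10 were lower in both FRC arrays (20% and 30.2% of all probe sets), with a median log2 difference of −0.23. In DN cells 1 was higher and 1 lower (22.7% and 14% of all), with a median of 0.18. Cox7a2, a subunit of cytochrome c oxidase, was 341 and 355 in FRC with CFA and 556 and 507 in FRC.

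Immediate early genes, which tissue dissociation is known to induce, had negative medians in all 3 populations. Of 21 tested, none was higher and 16 were lower in both DN arrays (22.7% and 14% of all probe sets), with a median log2 difference of −0.30. In FRC none was higher and 8 were lower (20% and 30.2% of all), with a median of −0.28. The first array was above the second for 9 of the 21 in DN cells with CFA and 11 in DN cells. In FRC this held for 6 with CFA and 0 without. Their geometric mean was 1567 and 1747 in FRC with CFA and 1745 and 2504 in FRC, so the second CFA array was level with the first control. In the LEC array with CFA none lay above and 18 below both LEC arrays (44.1% and 35.7% of all), with a median of −0.40. None was called in DN cells or FRC. Junb, a subunit of AP-1, was 1289 and 1805 in DN cells with CFA and 2200.2 and 2713 in DN cells, 986 and 1416 in FRC with CFA and 1889.9 and 2467 in FRC, and 1009 in LEC with CFA and 1775 and 1508 in LEC. Jund, another subunit, was 1619 and 1897 in FRC with CFA and 2944 and 3249 in FRC. Klf4, a Kruppel-like factor, was 803 and 1134 in DN cells with CFA and 1701 and 2402 in DN cells, and 1592 in LEC with CFA and 3170.1 and 2197 in LEC. Every array had high levels of Fos, with 4778 and 6333 in DN cells with CFA, 7786 and 7045 in DN cells, 3253 and 4727 in FRC with CFA and 4614 and 5826 in FRC.

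**Figure D5:**
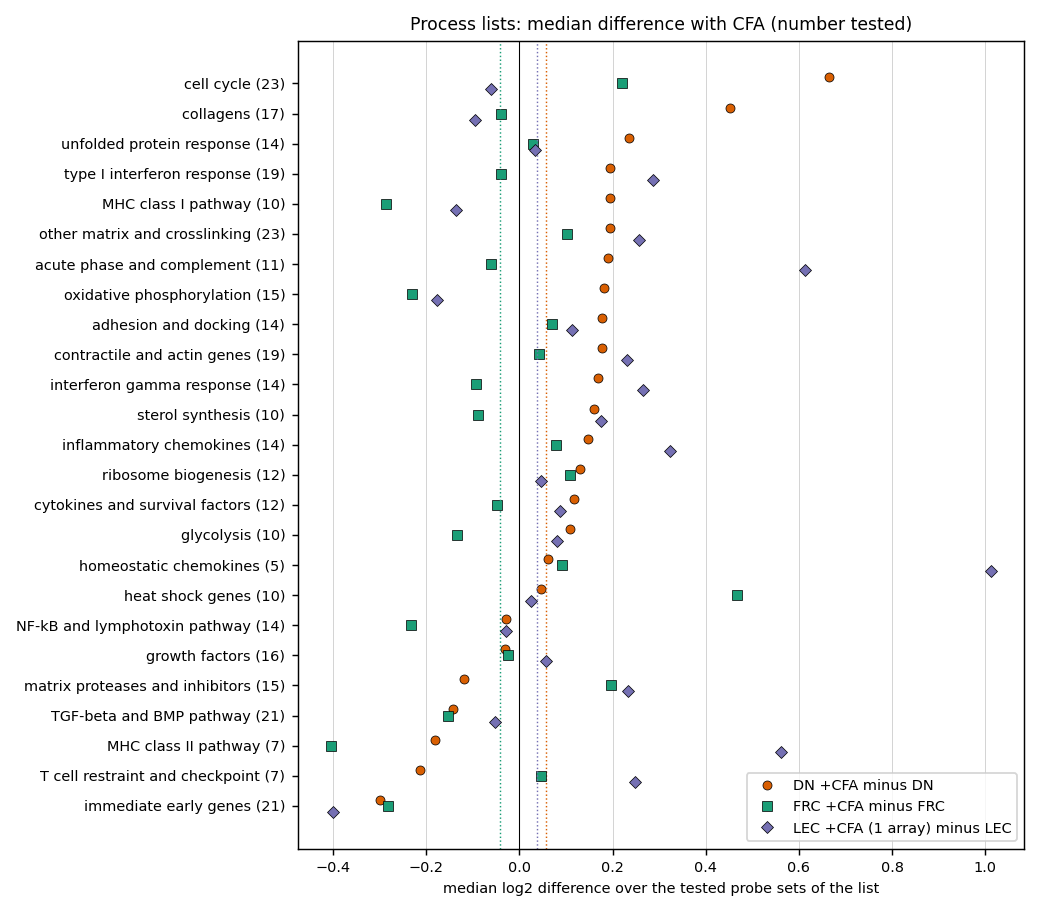
Median log2 difference with CFA over the tested probe sets of each of 25 lists of genes, for DN cells, FRC and the single LEC array, with dotted lines at the medians over all tested probe sets. Cell cycle and collagen genes have the highest medians in DN cells (0.67 and 0.45), heat shock genes in FRC (0.47), and immediate early genes are low in all 3.

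Whether the response of DN cells differed from that of FRC was tested as the difference of the 2 differences. At an unadjusted p under 0.05 it passed for 8.74% of probe sets, 6.66% with a higher and 2.08% with a lower response in DN cells. It was called for 12 (0.0838% of those tested, 0.0628% higher and 0.0209% lower): the 9 unnamed probe sets, with log2 values from 4.36 to 5.52, Ace with −2.19 ± 0.28 (limma adjusted p = 0.0128), Gxylt2 with −1.24 ± 0.18 (adjusted p = 0.0376), and Igkv6-20 with −3.56 ± 0.25 (adjusted p = 0.000598). Ace, Gxylt2 and Igkv6-20 are the 3 with a lower response in DN cells. Hp was not called in this test (adjusted p = 0.549), so its response was not shown to be particular to DN cells. No gene of cell division, collagens, heat shock, MHC class I or respiration was called in it. Without the first array of DN cells with CFA the number of calls was 4, and without the first array of DN cells it was 22.

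LEC with CFA had 1 array and is described by levels, with no test. By the rule of a level at least 2-fold outside both LEC arrays, 92 probe sets (0.642%) were higher and 39 (0.272%) lower. Genes of fibroblasts led the higher ones. Dpt, the matrix protein dermatopontin, was 314 in LEC with CFA and 34.3 and 69.7 in LEC, where FRC and DN arrays lay between 2944 and 6110. Mfap5, a microfibril protein, was 258 in LEC with CFA and 57.9 and 60.4 in LEC, and Gpx3, a secreted glutathione peroxidase, was 1014 with CFA and 163 and 365 without. The same array thus held more of several transcripts that were abundant in the other sorts. Of 16 tested markers of reticular fibroblasts 15 lay above both LEC arrays and 1 below (44.1% and 35.7% of all probe sets), with a sum over the same 16 markers of 20429 in LEC with CFA and 12976 to 14512 in LEC, against 72803 to 73802 in FRC with CFA. The part of fibroblasts in these differences was not tested.

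Cxcl13 was 870.3 in LEC with CFA and 157 and 333 in LEC, and Ccl19 was 1395 with CFA and 452 and 1056 without. Both were far higher in every FRC array. Chst4, a sulphotransferase of high endothelial venules, was 762 in LEC with CFA and 175 and 214 in LEC, and the 6 measured markers of these venules summed to 17270 in LEC with CFA and 13228 to 14498 in LEC. The markers of lymphatic endothelium, in contrast, summed to 31050 in LEC with CFA, inside the range of 30254 to 31750 in LEC. Cldn5, a tight junction protein of endothelium, was lower, at 1689.9 in LEC with CFA and 3566 and 3867 in LEC. Genes of type I interferon responses were above both LEC arrays for 15 of 19 and below for 2 (44.1% and 35.7% of all probe sets), with Oas2 at 521 in LEC with CFA and 216 and 237 in LEC. Mki67 was 523 in LEC with CFA and 416 and 475 in LEC, the highest control level of the 3 populations. With only the second or only the first LEC array as control, the number at least 2-fold apart was 210 or 287.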

How the data were processed

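RNA from the sorted cells was extracted with TRIzol and biotin-labelled for Affymetrix arrays, per the labels. The deposited linear intensity values were made by the authors with Affymetrix Power Tools and RMA, per the submitters' processing notes. The sources used here give neither versions nor which arrays were normalized jointly. Of 24922 probe sets, 21425 carry 1 symbol in the annotation used, 1399 carry several and 2098 are not listed. Only the first kind was named. The number of arrays limits the precision.

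Groups came from the sample titles. Values were taken to log2 and a mean per group was fitted to the 11 arrays with limma 3.58.1 in R 4.3.3 (lmFit and eBayes, two-sided, 5 residual and 5.444 prior degrees of freedom). A probe set was tested if the mean of at least 1 group was at or over the median of all values, which left 14325, with Benjamini-Hochberg adjustment in each comparison. LEC with CFA, with 1 array, adds nothing to the spread.

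The genes named were drawn, per comparison, from up to 10 called rises and 10 called falls without overlap of the groups and, below 20 such calls, up to 12 rises and 12 falls at an unadjusted p under 0.05, given as values. Not all that met this rule are shown. Among those left out were H2ac4, Nova1, Opcml and Serpina10 in DN cells and Cyp2e1, Serpina1d and Ache in FRC. To these came up to 4 members per list, genes of the gates and the 10 largest LEC differences each way. Predicted genes and small RNAs were left out. Other list members, immunoglobulin and liver genes and the unnamed probe sets in FRC were named after their values were seen. The arrays, the 25 process lists and the 16 marker lists (576 genes, 529 with a probe set, the brightest used) were chosen with earlier results of these data known. Lists are given by counts and medians.

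In the simulated data on which the fit was tested, 4 unchanged probe sets were called in DN cells and 5 in FRC. Alternatives were no filter or a stricter one, quantile normalization, log2 of the value plus 32, all 145 arrays, only the arrays compared, trend and robust variances, a replicate block, each array left out and, chosen after seeing the data, the 8 DN and FRC arrays.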

Additional observations from a re-analysis of the deposited data

Results flagged for a closer look

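By limma's test of the difference of the 2 log2 differences, DN minus FRC, the response to CFA differed between DN cells and FRC for 12 probe sets. The 9 probe sets without a symbol had 5.52 (10513420), 5.22 (10513455), 5.15 (10513437), 5.01 (10513472), 4.91 (10513504), 4.89 (10513428), 4.86 (10513467), 4.86 (10513497) and 4.36 (10513512), with adjusted p from 0.00306 to 0.00631. All 9 read at least 292.8 in both DN arrays with CFA and at most 17.02 in the DN controls. For 6 of them the adjusted p was 0.0548 without the first array of DN cells with CFA.

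Igkv6-20 had −3.56 (adjusted p = 0.000598), being high in both FRC arrays with CFA and in no DN array. Ace had −2.19 (adjusted p = 0.0128), and both DN arrays with CFA lay below the DN controls while both FRC arrays with CFA lay above the FRC controls. Gxylt2 had −1.24 (adjusted p = 0.0376), with the arrays in the same order as for Ace. The call of Gxylt2 on this difference was lost in 8 of 16 alternatives and that of Ace in 4. No group had the 4 arrays needed to look for single outlying values.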

How the results depend on the processing

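No called probe set changed sign under any alternative tried, while the counts moved with the arrays used. With 1 fit over every array of the series there were 121 calls in DN cells (50 higher, 71 lower), 49 in FRC (20 higher, 29 lower) and 39 for the difference of responses (15 higher, 24 lower), and these held 11, 1 and 12 of the reported calls. Without a filter FRC had 5 calls. DN cells had 15 calls with quantile normalization (10 higher, 5 lower), 13 with log2 of the value plus 32 (9 higher, 4 lower) and 9 with the stricter filter (6 higher, 3 lower), against 12 (10 higher, 2 lower). Leaving out 1 array gave 9 to 301 calls in DN cells, lowest without the second and highest without the first array of DN cells. It gave 2 to 7 in FRC, highest without the second array with CFA, and 4 to 22 for the difference, lowest without the first array of DN cells with CFA and highest without the first array of DN cells. An array left alone in its group is taken to spread as the remaining groups do. The LEC count of 131 was 210 or 287 with 1 control array. Array numbers gave 2 pairs per population, and deviations of equal numbers correlated at r = 0.338 in DN cells, 0.233 in FRC, 0.249 between the DN and FRC groups with CFA and 0.342 between the DN and FRC controls, against 0.0512 and 0.0376 for the LEC controls with those of DN cells and FRC. No label ties a number to a shared animal or day, so a pairing is not settled. With the replicate block DN cells had 32 calls (15 higher, 17 lower), FRC 1 and the difference 16. The DN calls then took in Adgrd1, Enpp3, Fbxl7, C7, Il33, Sema3c and Tnc, with limma adjusted p from 0.00668 to 0.0431. Among list genes the log2 difference of Ighm (10402991) in FRC, 0.19 in all arrays and not called, ranged from −0.16 to 0.54 with 1 array left out, and was −0.03 without the second array with CFA and −0.16 without the first control. The median of the TGF-beta and BMP list in DN cells, −0.14, was −0.20 with quantile normalization. The cause of these shifts was not tested beyond the number of arrays or probe sets each setting uses.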
